A study of Mus musculus with 9 samples.

Results

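The nuclear genes of the oxidative phosphorylation subunits were followed in cultured mouse astrocytes that lack Ink4a. They were chosen by symbol: genes beginning with Ndufa, Ndufb, Ndufc, Ndufs, Ndufv, Uqcr or Atp5, the lettered Cox4 to Cox8 subunits, Sdha to Sdhd, and Cyc1, without assembly factors and pseudogenes. The rule found 84 genes among the 20076 listed in either of 2 tables of ratios, with 83 in each table and 82 in both. In the study, Ink4a-/- astrocytes from brain received a plasmid for HA-tagged JICD1 (pcDNA HA-JICD1 puro), a plasmid for NICD1 (pcDNA NICD puro), or the empty pcDNA puro plasmid as control, with 3 libraries per group and 9 in all. JICD1 denotes the piece of Jagged1, a Notch ligand, that lies inside the cell, and NICD1 the corresponding piece of the Notch1 receptor, which acts as a transcriptional activator. All groups share the Ink4a deletion, high-glucose medium and serum. Whether the 3 libraries of a group came from separate animals, clones or cultures is not stated in the labels.

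Oxidative phosphorylation is carried out in the inner mitochondrial membrane. Complexes I (NADH dehydrogenase) and II (succinate dehydrogenase) pass electrons through coenzyme Q to complex III, which hands them through cytochrome c to complex IV (cytochrome c oxidase), and the resulting proton gradient drives ATP synthase, complex V. A few core subunits are encoded by mitochondrial DNA and the others by nuclear genes. Several complex IV subunits have a second isoform restricted to muscle, testis or cells in low oxygen. Cultured astrocytes are known as glycolytic cells that also respire.

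The values are those of the authors' deposited tables: for each gene a log2 ratio of a transfected group over control, and a score from 0 to 1 that the authors call Probability. The tables give no value for a single library. The ratios therefore come with no error and no test, the depth is unknown, and higher and lower describe only the sign of a ratio. A gene with a score of 0.8 or more is called scored, which is not a significance level. In the authors' deposited table Jag1 stood at -1.39 in the group labelled JICD1, with a score of 0.759. The plasmid encodes only the inner piece of Jagged1, and whether its reads were counted as Jag1 is not stated. The ratio of Jag1 therefore cannot check the label in either direction. That group is called the libraries labelled JICD1, or labelled JICD1 for short. With NICD1 the authors' deposited table put Jag1 at 1.36. Notch1 was above control in both, at 1.33 with labelled JICD1 and 1.77 with NICD1 in the authors' deposited tables. The Notch target Hes1 stood at -0.54 with labelled JICD1 and 1.58 with NICD1 in the authors' deposited tables. Of 10 astrocyte markers, 9 had a ratio, with medians of -0.72 with labelled JICD1 and -0.69 with NICD1. Of these 9, 3 lay above 0 with labelled JICD1 and 2 with NICD1. The fibroblast markers had medians of -2.98 over 4 genes with labelled JICD1 and 0.083 over 5 genes with NICD1, and the neuron markers 0.57 over 5 genes with labelled JICD1 and 3.35 over 4 genes with NICD1. With NICD1 3 fibroblast markers lay above 0 and 2 below: Col1a1 stood at 1.74 and Dcn at -5.08 in the authors' deposited table. The neuron markers lay on both sides of 0: Map2 stood at 3.02 with labelled JICD1 and 3.95 with NICD1, and Tubb3 at -2.16 with labelled JICD1 and -3.67 with NICD1, in the authors' deposited tables. Microglia markers had medians of -1.70 with labelled JICD1 and 0.88 with NICD1 over 6 genes, and muscle markers -1.83 over 5 genes with labelled JICD1 and -0.23 over 4 with NICD1. Above 0 were 1 microglia marker with labelled JICD1 and 5 with NICD1, and 1 muscle marker with each. Endothelial markers had medians of -0.071 with labelled JICD1 and 1.24 with NICD1 over 4 genes, and oligodendrocyte markers -0.34 with labelled JICD1 and -0.51 with NICD1 over 6. With each construct 2 endothelial and 3 oligodendrocyte markers lay above 0. The tables give no levels, so the cell type could not be checked by abundance. The part of these markers in the subunit ratios was not tested, and in bulk RNA fewer cells of a type and less RNA per cell cannot be told apart.

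None of the subunit genes was scored with either construct, and few of all genes were, so that these counts lie near the background. With labelled JICD1, 0 of 83 were scored, where 2.81% of all genes were: 1.07% were scored higher and 1.74% lower. With NICD1, 0 of 83 were scored, where 2.61% of all genes were: 1.64% were scored higher and 0.97% lower. At a score of 0.9 the counts were also 0, against 0.659% of all genes with labelled JICD1 and 0.612% with NICD1. At a score of 0.7, 5 of 83 were reached with labelled JICD1 (Ndufb5, Ndufc1, Ndufb10, Atp5pb and Cox6c), against 8.61% of all genes, and 2 of 83 with NICD1 (Ndufv1 and Atp5md), against 7.82%.

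The ratios themselves were spread less widely than those of all genes. A log2 ratio under 0.5 in size was held by 73 of 83 (88.0%) with labelled JICD1, against 52.1% of all genes, and by 76 of 83 (91.6%) with NICD1, against 54% of all genes. The interquartile range of the log2 ratios was 0.34 for the subunits and 0.93 for all genes with labelled JICD1. With NICD1 it was 0.21 for the subunits and 0.89 for all genes. Related lists were also narrower than all genes, so the narrow range is not particular to the subunits. For TCA cycle genes it was 0.21 with labelled JICD1 and 0.16 with NICD1. For cytosolic ribosomal protein genes it was 0.22 and 0.21 in that order, and for mitochondrial ribosomal protein genes 0.41 and 0.29. A log2 ratio of 1 in size was reached by 2 subunit genes with labelled JICD1, against 28.9% of all genes, and by 3 with NICD1, against 28.7%. All of these are tissue-restricted or low-oxygen isoforms. The genes whose score was above the middle for their ratio size were also taken alone. With labelled JICD1 the interquartile range was then 0.27 over 70 subunits and 0.87 over 9158 genes. With NICD1 it was 0.18 over 70 subunits and 0.82 over 9240 genes. This choice keeps a similar share of genes at every ratio size, so it could not test the wide spread of all genes.

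**Figure D1:**
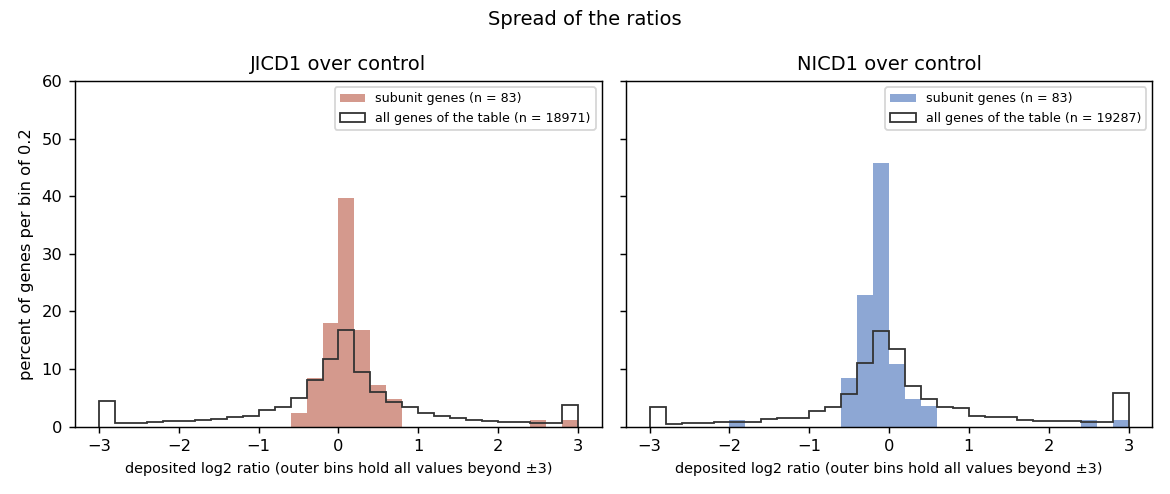
Percent of genes in bins of the deposited log2 ratio, for the 83 subunit genes (filled) and for all genes of the table (line), in the libraries labelled JICD1 (left) and with NICD1 (right). The subunits gather near 0, with 73 of 83 within 0.5 with labelled JICD1 and 76 of 83 with NICD1, and those beyond 1 are tissue-restricted or low-oxygen isoforms.

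Within this narrow range the middle of the set lay on opposite sides of 0. The median log2 ratio was 0.086 (1.06-fold) with labelled JICD1, with 59 of 83 above 0 and 24 below, while all genes had a median of 0.045, with 54.5% above 0 and 45.5% below. With NICD1 the subunit median was -0.14 (0.909-fold), with 18 of 83 above 0 and 65 below, while all genes had a median of -0.016, with 48.5% above 0 and 51.5% below. Subtracting the NICD1 ratio from the JICD1 ratio takes out the shared control. This difference had a median of 0.23 on the log2 scale over 82 subunits, with 70 (85.4%) above 0, while all genes had a median of 0.040 and 52.5% above 0. It was under 0.5 in size in 72 subunits, against 55.4% of all genes, and reached 1 in 1 subunit, Ndufa4l2, against 24.2%. No replicate spread is at hand to set these small shifts against.

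Genes were assigned to complexes by symbol, which puts Ndufa4 and Ndufa4l2 in complex I. Complex I, which oxidises NADH, held 38 of the genes. Their median log2 ratio was 0.068 with labelled JICD1, with 23 above 0, and -0.12 with NICD1, with 10 above 0. The catalytic core lay on both sides of 0. In the authors' deposited tables Ndufv1, which binds NADH and flavin, stood at 0.46 with labelled JICD1 and 0.59 with NICD1, with scores of 0.679 and 0.730 in that order. Ndufs1, the largest iron-sulphur subunit, stood at -0.48 with labelled JICD1 and -0.18 with NICD1 in the authors' deposited tables. These genes thus lay on opposite sides of 0 with both constructs, within the same arm of the enzyme.

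Further core subunits of complex I also differed in sign. Ndufs7, an iron-sulphur subunit at the quinone site, stood at -0.15 with labelled JICD1 and -0.47 with NICD1 in the authors' deposited tables. Ndufs8, another iron-sulphur subunit, stood at 0.20 with labelled JICD1 and 0.20 with NICD1 in the authors' deposited tables. For Ndufs3 the authors' deposited tables gave 0.057 with labelled JICD1 and -0.16 with NICD1, and for Ndufv2 -0.088 and -0.14 in that order. Ndufv1 and Ndufs8 were thus above 0 with both constructs, while Ndufs1, Ndufs7 and Ndufv2 were below 0 with both. Both Ndufv1 and Ndufs8 lie on chromosome 19, whose other genes had medians of 0.18 with labelled JICD1 and 0.46 with NICD1. Relative to these medians Ndufv1 lay at 0.28 and 0.14, and Ndufs8 at 0.021 and -0.26, in that order.

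The accessory subunits surround this core. Ndufb5, of the membrane arm, had the highest ratio of complex I with labelled JICD1, 0.72 with a score of 0.755, and -0.22 with NICD1 in the authors' deposited tables. Ndufc1 stood at 0.66 with labelled JICD1 and -0.013 with NICD1, and Ndufb10 at 0.53 with labelled JICD1 and 0.12 with NICD1, in the authors' deposited tables. These 3 reached a score of 0.7 with labelled JICD1, all above 0. On the other side of 0, Ndufb9 stood at -0.40 with labelled JICD1 and -0.056 with NICD1, and Ndufb6 at -0.34 with labelled JICD1 and -0.093 with NICD1, in the authors' deposited tables. Ndufab1, the mitochondrial acyl carrier protein, stood at 0.56 with labelled JICD1 and 0.54 with NICD1 in the authors' deposited tables. Ndufv3, a small subunit of the NADH-binding module, stood at 0.63 with labelled JICD1 and 0.40 with NICD1 in the authors' deposited tables. Both were above 0 with both constructs, but neither reached a score of 0.7.

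Between the constructs, the widest differences of complex I after Ndufa4l2 were those of Ndufb5, 0.94, and Ndufb4, 0.71. Relative to the median of the other genes of its chromosome, 3, Ndufb5 lay at 0.15 with labelled JICD1 and -0.25 with NICD1. For Ndufb4, on chromosome 16, these values were 0.23 and -0.40 in that order. Ndufb4 stood at 0.28 with labelled JICD1 and -0.43 with NICD1 in the authors' deposited tables. In all, 30 of the 38 differences of JICD1 minus NICD1 were above 0, with a median of 0.22. Outside Ndufa4l2, the ratios of the complex ran from -0.48 to 0.72 with labelled JICD1 and from -0.47 to 0.59 with NICD1.

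Ndufs5, an accessory subunit, is set apart here because of its pseudogene copy. It stood at -0.14 with labelled JICD1 and -0.41 with NICD1 in the authors' deposited tables, with scores of 0.165 and 0.194 in that order. Among the 300 genes nearest in ratio size, 7.83% with labelled JICD1 and 15.7% with NICD1 had a lower score. Low shares were not limited to Ndufs5. For Sdha the share was 12.3% with labelled JICD1 and 91.3% with NICD1, and for Atp5s 42.3% and 14% in that order. A copy named as the pseudogene of Ndufs5, BC002163 (now Ndufs5-ps), has its own row in the authors' deposited tables, at -0.20 with labelled JICD1 and -0.053 with NICD1. How shared reads were divided between gene and copy is not stated, so both values are uncertain. The same holds for any other subunit with near-identical copies.

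Complex II, the succinate dehydrogenase that is also an enzyme of the TCA cycle, had the lowest median of the 5 complexes with NICD1, -0.31, with all 4 of its genes below 0. With labelled JICD1 its median was 0.0086, with 2 of 4 above 0. Sdhb, the iron-sulphur subunit, stood at 0.41 with labelled JICD1 and -0.29 with NICD1 in the authors' deposited tables. The flavoprotein Sdha, which binds succinate, stood at -0.00011 with labelled JICD1 and -0.22 with NICD1 in the authors' deposited tables. Sdhb thus differed most between the constructs, by 0.70. The membrane anchors lay near 0 with labelled JICD1 and lower with NICD1: the authors' deposited tables gave 0.017 with labelled JICD1 and -0.34 with NICD1 for Sdhc. For Sdhd they were -0.035 with labelled JICD1 and -0.42 with NICD1 in the authors' deposited tables.

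Complex III, which hands electrons from coenzyme Q to cytochrome c, had the narrowest spread of the 5 complexes with labelled JICD1. Its 9 genes had an interquartile range of 0.050 around a median of 0.064 with labelled JICD1, and of 0.090 around -0.17 with NICD1, where 8 of 9 lay below 0. Uqcrfs1, the Rieske iron-sulphur protein, stood at 0.086 with labelled JICD1 and -0.33 with NICD1 in the authors' deposited tables, the widest difference of the complex at 0.41. Uqcrc1, a core protein, stood at 0.036 with labelled JICD1 and -0.20 with NICD1, and its partner Uqcrc2 at -0.043 with labelled JICD1 and -0.12 with NICD1, in the authors' deposited tables. Uqcr10, a small subunit, stood at 0.059 with labelled JICD1 and -0.25 with NICD1 in the authors' deposited tables. With labelled JICD1 the ends of the range were 2 others. Cyc1, the cytochrome c1 gene, stood at -0.27 with labelled JICD1 and -0.21 with NICD1, and Uqcr11 at 0.25 with labelled JICD1 and 0.11 with NICD1, in the authors' deposited tables.

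Complex IV, which reduces oxygen, held 15 genes in each table, and 11 of them are not on the list of restricted isoforms. Those 11 had medians of 0.043 with labelled JICD1, with 9 above 0, and -0.13 with NICD1, with 1 above 0. Cox4i1, the common form of the regulatory subunit 4, stood at 0.036 with labelled JICD1 and -0.16 with NICD1 in the authors' deposited tables. Cox5a stood at 0.34 with labelled JICD1 and -0.072 with NICD1, and Cox5b at 0.027 with labelled JICD1 and -0.42 with NICD1, in the authors' deposited tables. Cox6a1 stood at 0.31 with labelled JICD1 and -0.21 with NICD1, and Cox6b1 at 0.11 with labelled JICD1 and -0.30 with NICD1, in the authors' deposited tables. These 5 share an order, with the JICD1 ratio above the NICD1 ratio.

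Among the other small subunits of complex IV, Cox6c and Cox7a2l departed from that order. Cox6c had the lowest ratio of any subunit with labelled JICD1, -0.57 with a score of 0.704, and -0.10 with NICD1 in the authors' deposited tables. Cox7a2l, known for joining complexes III and IV into supercomplexes, stood at -0.22 with labelled JICD1 and -0.13 with NICD1 in the authors' deposited tables. Both were lower with labelled JICD1 than with NICD1, while the other 4 kept the order. Cox7a2, the common form of subunit 7a, stood at 0.14 with labelled JICD1 and -0.13 with NICD1 in the authors' deposited tables. Cox8a, the common form of subunit 8, stood at 0.34 with labelled JICD1 and 0.20 with NICD1 in the authors' deposited tables, the 1 of the 11 above 0 with both. Relative to the median of the other genes of its chromosome, 19, Cox8a lay at 0.16 with labelled JICD1 and -0.26 with NICD1. The remaining Cox7b and Cox7c lay within 0.5 of 0 with both constructs, as did 10 of the 11 with labelled JICD1 and all 11 with NICD1.

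The restricted isoforms held the largest ratios of the set, with low scores. Cox4i2, the low-oxygen form of subunit 4, stood at 2.59 with labelled JICD1 and 2.49 with NICD1 in the authors' deposited tables, with a score of 0.246 in both. Cox8b, a heart and muscle form, stood at 3.54 with labelled JICD1 in the authors' deposited table, with a score of 0.333, and had no ratio with NICD1. Cox6b2, a testis form, stood at 2.80 with NICD1 in the authors' deposited table, with a score of 0.267, and had no ratio with labelled JICD1. The ratio and score of these 3 lay on a curve drawn by 694 genes that have an equal negative ratio in both tables. The control was therefore inferred to be at a lower limit of the authors' processing for these 3 genes, and no fold change is stated for them.

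Ndufa4l2, a hypoxia-induced relative of Ndufa4, stood at -0.35 with labelled JICD1 and -1.83 with NICD1 in the authors' deposited tables, with scores of 0.175 and 0.288 in that order. Its difference of 1.47 was the widest of all 82. Ndufa4, whose protein is now placed in complex IV, stood at -0.21 with labelled JICD1 and -0.38 with NICD1 in the authors' deposited tables. Cox7a1, a heart and muscle form, stood at 0.36 with labelled JICD1 and -0.59 with NICD1, and Cox6a2, also a muscle form, at 0.31 with labelled JICD1 and 0.21 with NICD1, in the authors' deposited tables. The scores of the restricted isoforms ranked below the middle of the genes nearest in ratio size, at most at 35.7% with labelled JICD1 and 49.5% with NICD1. The share of the 300 nearest genes with a lower score had a median of 20.7% over 5 restricted isoforms with labelled JICD1 and 33.2% over 5 with NICD1. For the 78 others it was 89.3% with labelled JICD1 and 86.3% with NICD1. How the score is made is not stated, so this rank describes the tables and is not a level of expression.

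Complex V, the ATP synthase, held 17 genes. Their medians were 0.16 with labelled JICD1, with 14 above 0, and -0.11 with NICD1, with 3 above 0. The genes of the catalytic head lay together: Atp5a1 stood at 0.089 with labelled JICD1 and -0.34 with NICD1 in the authors' deposited tables. Atp5b, which carries the catalytic sites, stood at 0.20 with labelled JICD1 and -0.18 with NICD1, and Atp5c1, the rotor subunit, at 0.13 with labelled JICD1 and -0.14 with NICD1, in the authors' deposited tables. All 3 had JICD1 above 0 and NICD1 below it.

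The widest differences of complex V were in the peripheral stalk and the c ring. Atp5pb, subunit b of the stalk, stood at 0.60 with labelled JICD1 and -0.072 with NICD1 in the authors' deposited tables, a difference of 0.67. Relative to the median of the other genes of its chromosome, 3, Atp5pb lay at only 0.038 with labelled JICD1 and -0.10 with NICD1. Atp5o, which joins the stalk to the head, stood at 0.38 with labelled JICD1 and -0.18 with NICD1 in the authors' deposited tables, a difference of 0.56. Atp5g1 and Atp5g3 encode the same ring subunit c. The authors' deposited tables gave 0.46 with labelled JICD1 and -0.058 with NICD1 for Atp5g1, and 0.078 with labelled JICD1 and -0.23 with NICD1 for Atp5g3. Atp5md, a small membrane subunit, was the 1 gene of the 17 lower with labelled JICD1 than with NICD1: it stood at 0.34 with labelled JICD1 and 0.58 with NICD1, with scores of 0.639 and 0.739 in that order, in the authors' deposited tables. Relative to the median of the other genes of its chromosome, 19, Atp5md lay at 0.16 with labelled JICD1 and 0.12 with NICD1. Atp5s, which the current RefSeq names Dmac2l, stood at 0.51 with labelled JICD1 and 0.19 with NICD1 in the authors' deposited tables, with scores of 0.376 and 0.243 in that order. The inhibitor gene Atpif1, not counted in the set, stood at 0.037 with labelled JICD1 and -0.076 with NICD1 in the authors' deposited tables.

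**Figure D2:**
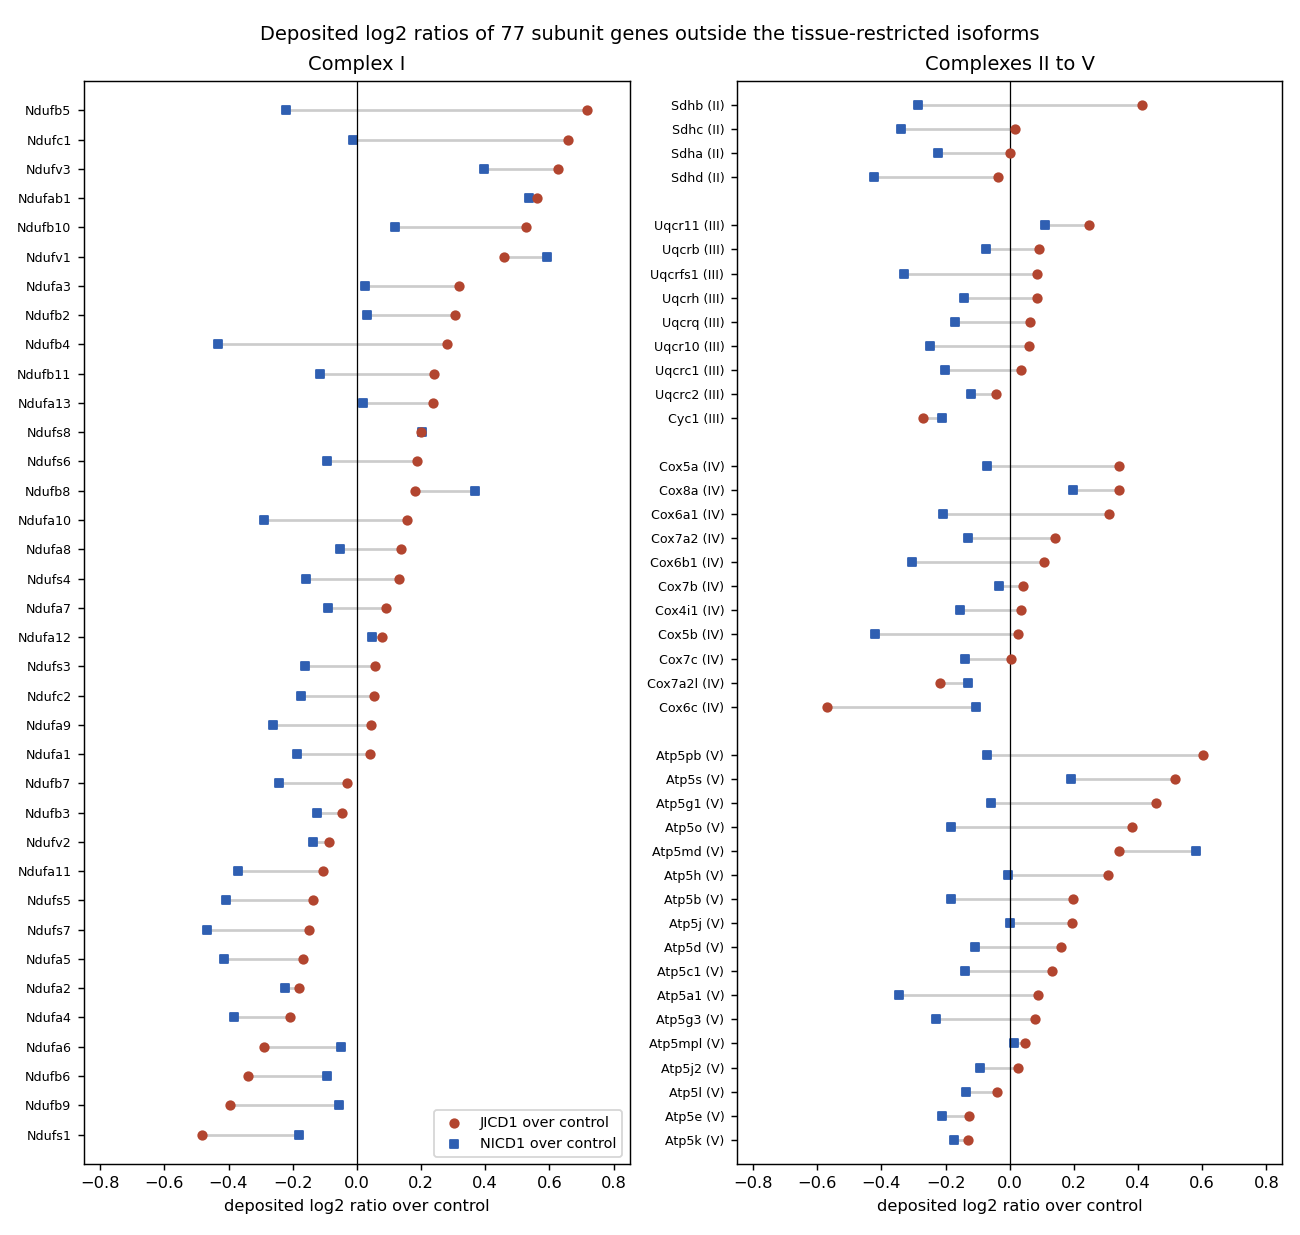
Deposited log2 ratio over control for 77 subunit genes outside the tissue-restricted isoforms, with labelled JICD1 (red circles) and with NICD1 (blue squares), ordered within each complex by the JICD1 ratio. In 66 of 77 genes the JICD1 circle lies right of the NICD1 square, and no value lies beyond 0.72 in size.

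Several of the subunits farthest from 0 sat on chromosomes whose other genes were displaced in the same direction. In the libraries labelled JICD1 the 3 subunit genes of chromosome 3 (Ndufb5, Ndufc1 and Atp5pb) stood at 0.60 to 0.72 in the authors' deposited table, and the 882 other genes of that chromosome had a median of 0.56, with 79.3% above 0. The 4 subunit genes of chromosome 15 (Cox6c, Ndufb9, Ndufa6 and Cyc1) stood at -0.57 to -0.27 in the same authors' deposited table, and the 691 other genes there had a median of -0.45, with 26.9% above 0. With NICD1 the authors' deposited table gave -0.22 to -0.013 for the 3 genes of chromosome 3 and -0.21 to -0.048 for the 4 of chromosome 15. The other genes of these chromosomes had medians of 0.028 and -0.026 there, close to 0.

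Chromosome 19 was displaced with NICD1. Its 5 subunit genes (Ndufv1, Atp5md, Ndufb8, Ndufs8 and Cox8a) had medians of 0.34 with labelled JICD1 and 0.37 with NICD1. The other genes of chromosome 19 had medians of 0.18 over 565 genes with labelled JICD1 and 0.46 over 587 genes with NICD1, where 81.4% lay above 0. On the remaining 17 chromosomes the medians of the other genes lay between -0.017 and 0.075 with labelled JICD1 and between -0.063 and 0.010 with NICD1. These 3 chromosomes were singled out after their values were seen, and what sets them apart was not tested.

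Over the 78 subunits outside the restricted isoforms, the ratio of a subunit and the median of its chromosome had a Pearson r of 0.65 (Spearman 0.45) with labelled JICD1 and of 0.60 (Spearman 0.24) with NICD1. This describes genes, not replicates: those on 1 chromosome share a median, and all share the same libraries. Among the 66 subunits off chromosomes 3, 15 and 19, r was 0.18 with labelled JICD1 and 0.062 with NICD1. After subtraction of the chromosome medians, the standard deviation over the 78 subunits was 0.19 in place of 0.26 with labelled JICD1, and 0.17 in place of 0.22 with NICD1. Other subunits lay far from a chromosome median near 0. With labelled JICD1, Ndufs1 on chromosome 1 lay -0.49 from its chromosome median, Ndufv3 on chromosome 17 lay 0.55, Ndufb10 on chromosome 17 lay 0.45 and Ndufab1 on chromosome 7 lay 0.55.

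**Figure D3:**
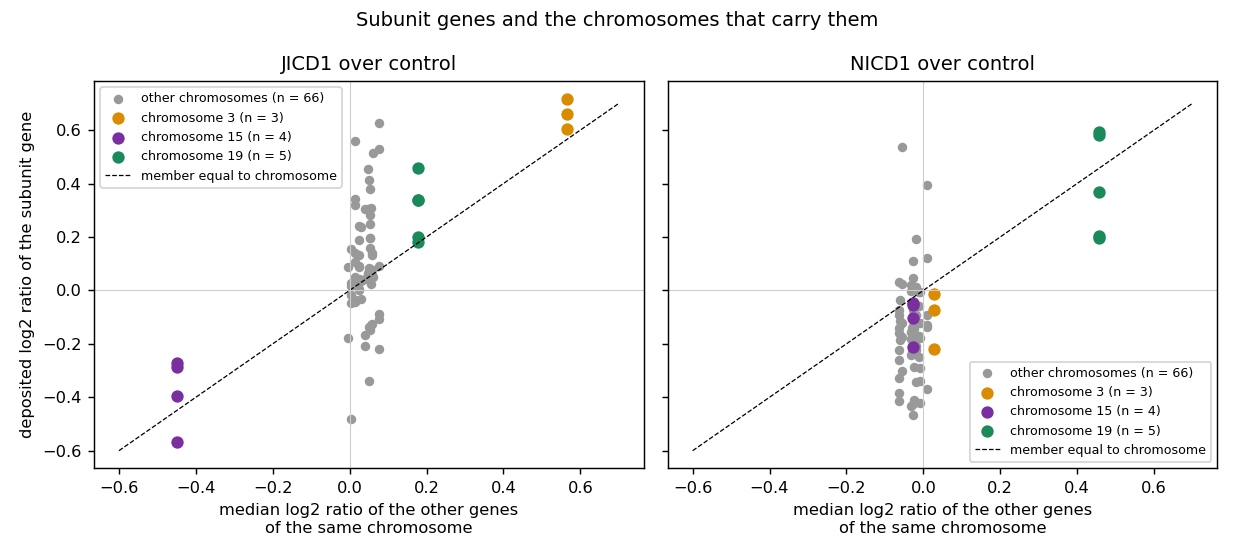
Deposited log2 ratio of each of 78 subunit genes (y axis) against the median log2 ratio of the other genes on its chromosome (x axis), with labelled JICD1 (left) and NICD1 (right); the dashed line marks equal values. With labelled JICD1 the 3 genes of chromosome 3 stand apart at the upper right and the 4 of chromosome 15 at the lower left, and with NICD1 the 5 of chromosome 19 stand at the right.

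The difference between the constructs was as large without these chromosomes. Over the 71 subunits elsewhere the medians were 0.079 with labelled JICD1 and -0.14 with NICD1. The difference of JICD1 minus NICD1 then had a median of 0.24, with 66 of 70 above 0.

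Subunit genes are known for binding sites of the factor NRF1 and of ETS-family factors just upstream of their start, so these letters were searched. RefSeq promoters of GRCm38.p6 were found for 67 of the 84 genes, and the 250 bases before the start were read on both strands. The NRF1 core motif occurred in 12 of 67 promoters (17.9%), against 4.23% of 27025 genes, and its palindromic form, a case of the first, in 3 of 67 against 0.877%. The ETS motif CCGGAAG occurred in 12 of 67 (17.9%), against 7.83%, and the YY1 motif GCCATNTTG in 3 of 67, against 1.54%. The CCAAT letters occurred in 29 of 67 (43.3%), against 37.5%, and TATAAA in 6 of 67 (8.96%), against 14.3%. The 27025 genes outnumber the 20076 listed in either table, so they include genes without a ratio here. No share was tested against a set of comparable genes. A match describes letters and is not a bound site. The subunits with the NRF1 core had medians of 0.067 with labelled JICD1 and -0.22 with NICD1, and those without it 0.14 with labelled JICD1 and -0.13 with NICD1.

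Printed here are the 3 subunit genes of chromosome 3, all with a score over 0.7 with labelled JICD1, and the 3 genes that hold the palindromic NRF1 core, to show how differently these upstream regions are built. Each runs 5′ to 3′ along the strand of the gene and ends at the base before the start, with matches to the motifs above in capitals.
Ndufb5, chr3:32736813-32737062, plus strand: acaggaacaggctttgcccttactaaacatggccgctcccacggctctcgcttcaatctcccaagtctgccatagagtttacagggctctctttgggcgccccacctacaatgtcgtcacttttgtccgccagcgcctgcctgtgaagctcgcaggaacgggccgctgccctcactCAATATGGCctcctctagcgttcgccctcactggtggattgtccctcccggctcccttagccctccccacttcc
Ndufc1, chr3:51408956-51409205, minus strand: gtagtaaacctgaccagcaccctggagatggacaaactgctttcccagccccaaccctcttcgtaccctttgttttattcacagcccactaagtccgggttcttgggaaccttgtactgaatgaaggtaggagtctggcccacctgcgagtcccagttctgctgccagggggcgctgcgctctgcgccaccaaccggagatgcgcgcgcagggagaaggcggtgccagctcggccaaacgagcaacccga
Atp5pb, chr3:105959264-105959513, minus strand: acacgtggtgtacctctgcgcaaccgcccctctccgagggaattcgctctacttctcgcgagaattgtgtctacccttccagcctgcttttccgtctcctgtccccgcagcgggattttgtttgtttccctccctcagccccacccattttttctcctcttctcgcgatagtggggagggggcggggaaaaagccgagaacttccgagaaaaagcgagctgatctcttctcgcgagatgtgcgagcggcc
Atp5k, chr5:108434400-108434649, minus strand: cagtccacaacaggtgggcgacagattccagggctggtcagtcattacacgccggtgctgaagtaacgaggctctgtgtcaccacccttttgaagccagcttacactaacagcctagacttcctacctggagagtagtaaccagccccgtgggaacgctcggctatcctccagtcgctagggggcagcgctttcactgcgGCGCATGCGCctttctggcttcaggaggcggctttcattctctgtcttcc
Cox6a1, chr5:115348959-115349208, minus strand: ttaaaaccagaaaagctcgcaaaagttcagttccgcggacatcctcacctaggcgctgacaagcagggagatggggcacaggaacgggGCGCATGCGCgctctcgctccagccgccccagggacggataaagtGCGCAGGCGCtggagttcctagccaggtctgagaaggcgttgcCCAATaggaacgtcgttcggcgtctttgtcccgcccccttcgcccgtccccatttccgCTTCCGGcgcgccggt
Ndufa11, chr17:56717512-56717761, plus strand: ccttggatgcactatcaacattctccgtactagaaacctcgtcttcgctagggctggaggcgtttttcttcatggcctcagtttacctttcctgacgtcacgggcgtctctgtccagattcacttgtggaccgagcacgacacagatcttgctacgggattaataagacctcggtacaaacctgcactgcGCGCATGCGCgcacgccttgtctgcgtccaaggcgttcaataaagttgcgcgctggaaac

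Of the chromosome 3 genes, Ndufb5 held 1 match, to the YY1 motif 74 bases before the start, and the windows of Ndufc1 and Atp5pb held none of these letters. Cox6a1 held the NRF1 core at 162 and 117 bases before the start, CCAAT at 74 and the ETS motif at 16. Atp5k, a membrane subunit of ATP synthase with the NRF1 core at 50 bases, stood at -0.13 with labelled JICD1 and -0.17 with NICD1 in the authors' deposited tables. Ndufa11, a membrane-arm subunit of complex I with the core at 60 bases, stood at -0.11 with labelled JICD1 and -0.37 with NICD1 in the authors' deposited tables. Together with Cox6a1 these 3 genes were all below 0 with NICD1 and had both signs with labelled JICD1. Most subunits, 65 of 83 (78.3%), were below 0 with NICD1, so this is not particular to the 3 genes.

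Several other lists of mitochondrial genes had their medians on the same sides of 0. The 12 subunits encoded by mitochondrial DNA that had a ratio had medians of 0.12 with labelled JICD1 and -0.10 with NICD1, and 0 of 12 were scored with either. Among them mt-Co1, the catalytic subunit of complex IV, stood at -0.38 with labelled JICD1 and -0.25 with NICD1 in the authors' deposited tables. The assembly factors, which help build the complexes, had medians of 0.13 with labelled JICD1 (32 of 51 above 0) and -0.13 with NICD1 (17 of 51 above 0). The 1 of them that was scored was Cox14, needed for the making of mt-Co1, which the authors' deposited table put at -1.11 with labelled JICD1, with a score of 0.810; it lies on chromosome 15.

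Genes of the TCA cycle and of pyruvate entry had medians of 0.039 with labelled JICD1 and -0.13 with NICD1, where 16 of 18 lay below 0. The mitochondrial ribosomal protein genes had medians of 0.038 with labelled JICD1 and -0.11 with NICD1, where 57 of 78 lay below 0. Protein import and folding genes had medians of 0.081 with labelled JICD1 and -0.074 with NICD1 over 23 genes, and those of coenzyme Q, cytochrome c and the electron transfer flavoprotein 0.16 with labelled JICD1 and -0.074 with NICD1 over 18. The cytosolic ribosomal protein genes were above 0 with both, at 0.11 with labelled JICD1 and 0.055 with NICD1 over 74 genes. Mitochondrial carriers and channels had medians of 0.19 with labelled JICD1 and -0.022 with NICD1 over 14 genes. The 1 carrier that was scored was Ucp2, of the uncoupling protein family, which the authors' deposited table put at -3.22 with labelled JICD1, with a score of 0.908.

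On the difference of JICD1 minus NICD1 the subunits had a median of 0.23, the assembly factors 0.24, the TCA cycle genes 0.23, the mitochondrial ribosome 0.19, the import and folding genes 0.19, the mitochondrially encoded subunits 0.17 and the cytosolic ribosome 0.025, against 0.040 for all genes. It was 0.30 for the genes of coenzyme Q, cytochrome c and the electron transfer flavoprotein, and 0.20 for carriers and channels. The biogenesis regulators had a median of 0 over 21 genes, with 10 above 0 and 10 below. The lowest ratio of that list was -1.31 with both constructs. The exact 0 may therefore stem from a gene at the lower limit and is not read as a measured lack of difference. No list was tested against another.

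**Figure D4:**
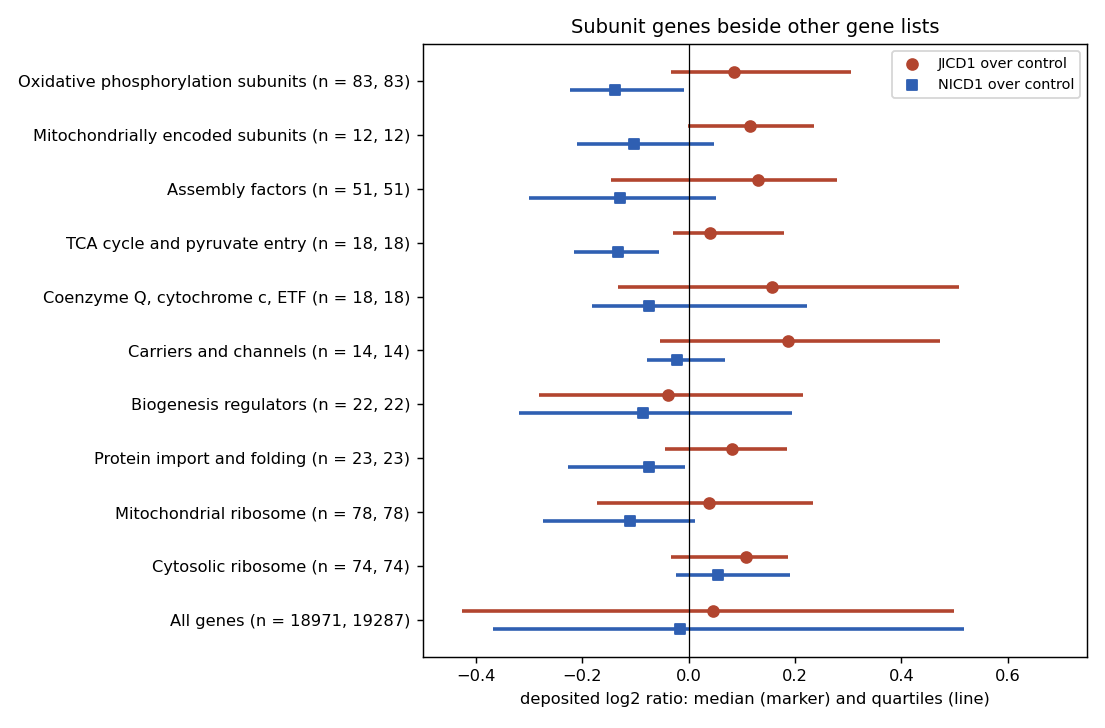
Median (marker) and quartiles (line) of the deposited log2 ratio for the subunit genes, for related gene lists and for all genes, with labelled JICD1 (red circles) and NICD1 (blue squares). The subunits have medians of 0.086 with labelled JICD1 and -0.14 with NICD1, and the quartiles of all genes lie farther apart than those of any list shown.

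The regulators of mitochondrial biogenesis had medians of -0.038 with labelled JICD1 and -0.085 with NICD1 over 22 genes, and 0 were scored with either. Tfam, which packages and transcribes mitochondrial DNA, stood at -0.00044 with labelled JICD1 and 0.058 with NICD1 in the authors' deposited tables. Nrf1, the factor whose motif was searched, stood at 0.15 with labelled JICD1 and -0.13 with NICD1 in the authors' deposited tables. Tfam lay near 0 with either construct. Nrf1 had the same signs as the subunit medians, but so had the medians of all genes, 0.045 and -0.016. The scores of Nrf1 were 0.377 with labelled JICD1 and 0.362 with NICD1, and a link to the subunits was not tested. Esrra, a nuclear receptor that acts on respiratory genes and lies on chromosome 19, stood at 0.45 with labelled JICD1 and 0.22 with NICD1 in the authors' deposited tables. Lonp1, a protease of the mitochondrial matrix, stood at -0.024 with labelled JICD1 and -0.38 with NICD1 in the authors' deposited tables. Ppargc1a, the coactivator PGC-1 alpha, had no ratio with labelled JICD1 and stood at 4.90 with NICD1 in the authors' deposited table, with a score of 0.560. Cox6b2, whose control was inferred to be at the lower limit, also had no ratio with labelled JICD1. Whether the control of Ppargc1a was at that limit is not known, and no fold change is stated for it.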

How the data were processed

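RNA-seq of 9 samples was studied through 2 tables of the authors' own comparisons. The submitters' processing notes name Bowtie2, BWA and the build mm9, without a role; in the tables, 11622 genes (JICD1) and 11814 (NICD1) are described by GRCm38 positions. Counting and normalisation are not stated. The log2 ratios and the Probability score were deposited by the authors and used unchanged. With 0 columns of single libraries, the planned replicate tests could not be run. Names, chromosomes and promoters came from RefSeq and GENCODE annotations of GRCm38, with names for 18586 of 18971 genes in the JICD1 table and 18901 of 19287 in the NICD1 table. Of the 84 members, 33 carried a fitting symbol in a table, 49 were found by gene ID and 2 by their current symbol. A lower limit in the control was inferred where a log2 ratio of 1 or more in size lay within 0.002 of the scores of genes with equal negative ratios (tolerance 1e-06). Named members were any scored ones, the 5 highest and 5 lowest per comparison, core subunits, isoforms and the 3 widest differences per complex; others are named after their values were seen, and 1 subunit gene, counted in the totals, is not reported by name. The scripts (Python 3.11.15, pandas 2.3.3) were tested on simulated data. Members, lists and the score limit were chosen with earlier results of these data known. Alternatives were other limits, other choices of members and other centrings.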

Additional observations from a re-analysis of the deposited data

How the results depend on the processing

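No paired analysis was possible because each gene has 1 ratio for a whole group; the replicate block and the fits without each replicate were not run. With a score limit of 0.7 the counts of members were 5 with labelled JICD1 and 2 with NICD1, and with a log2 ratio of 1 in size, whatever the score, they were 2 with labelled JICD1 and 3 with NICD1. The counts were 0 under the other limits and choices of members tried. The median difference of JICD1 minus NICD1 was 0.17 after each table's median of all genes was subtracted, and 0.19 to 0.24 under the other alternatives. The member medians kept their sign, at 0.038 to 0.085 with labelled JICD1 and -0.15 to -0.12 with NICD1. Subtraction of chromosome medians and removal of chromosomes 3, 15 and 19 were chosen after the data were seen. Without counts or libraries, neither depth nor replicate error could be set against any value.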
